A study of Mus musculus with 36 samples.

Results

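The 9 genes described here carry dopamine signals in striatal projection neurons. They were chosen by symbol from the gene annotation of the counts table, are 9 of its 24940 genes, and all 9 were found and passed the filter on low counts in every comparison below. Drd1, Tac1 and Pdyn mark the direct pathway, Drd2, Adora2a and Penk the indirect pathway, and Ppp1r1b, Rgs9 and Adcy5 serve both.

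Striatal projection neurons are the inhibitory output cells of the striatum and receive dopamine from the midbrain. Direct pathway cells carry the dopamine receptor Drd1, which raises cAMP, and release substance P and dynorphin, made from Tac1 and Pdyn. Indirect pathway cells carry the dopamine receptor Drd2, which lowers cAMP, and the adenosine receptor Adora2a, which raises it, and release enkephalin, made from Penk. In both, the adenylyl cyclase Adcy5 makes cAMP, the phosphoprotein encoded by Ppp1r1b passes the signal on to protein phosphatases, and Rgs9 ends G protein signalling.

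The study took poly(A) RNA of striatum, corpus callosum and cortex from male MBP29-hα-syn mice, called MSA mice here, and from male wild-type controls. In MBP29-hα-syn mice a promoter of oligodendrocytes, that of myelin basic protein, drives human α-synuclein, and they model the disease multiple system atrophy (MSA). Both genotypes were fed either PLX5622 in the chow (1200 mg/kg), which blocks the microglial survival receptor CSF1R, or standard chow, called placebo. Feeding started when mice were 4 weeks old and went on for 12 weeks before bulk tissue was taken. Striatum had 2 libraries from MSA mice on PLX5622, 3 from MSA mice on placebo, 2 from control mice on PLX5622 and 2 from control mice on placebo. Corpus callosum had 2, 2, 2 and 3 libraries in the same order of groups, and cortex had 3 in each. Microglia sorted from forebrain of 16-week-old mice gave 3 libraries tagged MBP29 homozygous, called MSA, and 3 control libraries tagged MBP29 heterozygous, while the protocol speaks of wild-type mice there. Libraries keep the numbers of their titles, so the 2 MSA striatum libraries on PLX5622 are 2 and 3. No label ties libraries to animals, and the p-values below rest only on the spread among libraries, part of which may be technical.

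Counts assigned to genes came to 5.18 to 11.3 M per library in striatum, 4.59 to 28.6 M in corpus callosum and 4.36 to 9.79 M in cortex. The striatum label fitted its markers. A list of 10 other projection neuron genes, such as Bcl11b, summed to 7006 to 10164 counts per 1e+06 counts assigned to genes (CPM) in striatum, against 616 to 2508 CPM in corpus callosum and 667 to 1319 CPM in cortex. Of the striatum libraries 3 stood apart, all from MSA mice. In MSA placebo library 1 the cortical glutamatergic list, which holds Slc17a7, summed to 1018 CPM, against 84.1 to 192 CPM in the other striatum libraries. In MSA PLX5622 library 2, 65.5% of the reads in the file header total were assigned to genes, against 74.3 to 76.9% in the others, and the pan-neuronal list summed to 2462 CPM, against 3246 to 3969.5 CPM. In MSA placebo library 3 the choroid plexus list summed to 3847 CPM, against 41.9 to 519.9 CPM in the others. Several values below are given with and without one of these libraries. Values given only once may also move when 1 of them is left out. The control PLX5622 striatum libraries carry a tag of no treatment beside their PLX title, and their microglia list summed to 3.03 and 0.425 CPM, against 344 and 368 CPM in control placebo striatum.

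The start regions of 4 genes are printed because their products define the sides of the circuit (Drd1 and Drd2) or are the peptides that direct pathway cells make (Tac1 and Pdyn). Each is the 250 bases before a gene start in RefSeq on GRCm38.p6, the assembly also named mm10, read 5′ to 3′ on the strand of the gene. Since the receptors act through cAMP, the letters of the cAMP response element, TGACGTCA, and of its core, CGTCA, were searched on both strands, and capitals mark a core, which is also part of the full letters. Tac1 at chr6:7554811-7555060 is on the plus strand, Pdyn at chr2:129699939-129700188 and Drd1 at chr13:54054781-54055030 on the minus strand, and Drd2 at chr9:49340153-49340402 on the plus strand.
Tac1: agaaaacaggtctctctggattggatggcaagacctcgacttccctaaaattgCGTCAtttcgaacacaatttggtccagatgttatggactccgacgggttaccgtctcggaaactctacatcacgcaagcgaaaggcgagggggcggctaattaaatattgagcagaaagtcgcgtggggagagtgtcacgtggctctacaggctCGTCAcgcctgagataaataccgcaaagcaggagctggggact
Pdyn: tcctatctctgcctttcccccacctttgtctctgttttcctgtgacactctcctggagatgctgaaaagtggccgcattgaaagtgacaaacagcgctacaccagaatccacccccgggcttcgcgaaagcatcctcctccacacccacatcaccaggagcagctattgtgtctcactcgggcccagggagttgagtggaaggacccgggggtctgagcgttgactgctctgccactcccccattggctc
Drd1: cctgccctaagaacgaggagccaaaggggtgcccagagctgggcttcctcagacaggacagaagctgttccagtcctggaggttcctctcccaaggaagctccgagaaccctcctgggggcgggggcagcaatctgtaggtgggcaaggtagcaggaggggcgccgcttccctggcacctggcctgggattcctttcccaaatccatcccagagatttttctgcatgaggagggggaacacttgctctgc
Drd2: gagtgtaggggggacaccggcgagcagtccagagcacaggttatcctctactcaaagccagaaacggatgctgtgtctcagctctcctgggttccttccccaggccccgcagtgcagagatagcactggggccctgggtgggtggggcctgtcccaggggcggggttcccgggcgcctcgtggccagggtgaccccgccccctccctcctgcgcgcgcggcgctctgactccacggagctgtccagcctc
Only the Tac1 window of these 4 holds the core, with first bases 197 and 43 bases before the start, both on the printed strand. Of 8 windows held for 6 of the 9 genes (Drd1, Tac1, Pdyn, Drd2, Rgs9 and Adcy5), 1 holds a core and 0 hold the full letters. Over all 32851 windows of that table, 17.8% hold a core and 1.55% the full letters, and a match is a description of letters, not of a site in use. The RefSeq start used for Drd2 lies 259 bases before the start of the transcript in the counts table, so that window ends upstream of the annotated transcript. Drd1 and Pdyn each have another window, which is not printed. Its start lies 878 bases upstream of the printed start for Drd1 and 1280 bases downstream for Pdyn. The printed Drd1 window thus lies downstream of another start of that gene. In the counts table Drd1 spans chromosome 13 from 54051184 to 54054780, Tac1 chromosome 6 from 7555061 to 7562978, Pdyn chromosome 2 from 129686549 to 129699938 and Drd2 chromosome 9 from 49340662 to 49407214.

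The first comparison asked how far each gene marks striatum among the regions sampled. All 9 genes were higher in striatum than in cortex and than in corpus callosum in the quasi-likelihood F test of edgeR on all 30 bulk libraries, averaged over the 4 groups of genotype and diet, and a gene passed at a Benjamini-Hochberg adjusted p under 0.05. Of the 16080 genes tested, 39.3% passed between striatum and cortex and 30.3% between striatum and corpus callosum, in either direction. The median log2 change of the 9 genes was 3.78 against cortex and 3.06 against corpus callosum, beside medians over all genes tested of -0.04 and -0.11. In bulk tissue fewer cells of a type and less RNA per cell cannot be told apart.

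Drd2 stood furthest apart, at 193, 293 and 326 CPM in striatum (lowest, median and highest of 9 libraries), against 4.43, 25.6 and 72.0 CPM in corpus callosum (9 libraries) and 0.537, 8.10 and 28.7 CPM in cortex (12 libraries). Its mean was 27.1-fold higher in striatum than in cortex, with a log2 change of 4.83 ± 0.50 (SE of the fit; adjusted p = 6.98e-08 by edgeR). Its neighbour on indirect pathway cells, Adora2a, had 427, 604 and 745 CPM in striatum, against 17.0, 58.2 and 168 CPM in corpus callosum and 2.68, 20.9 and 65.7 CPM in cortex. No library of either other region reached the lowest striatum library for either receptor. Penk, at 489 to 1528 CPM in striatum, 30.9 to 382 CPM in corpus callosum and 19.5 to 203 CPM in cortex, was 13.7-fold higher in striatum than in cortex by the means, a log2 change of 3.82 ± 0.42. Penk overlaps another annotated gene, and since it is unknown whether reads were counted by strand, those of the overlap are uncertain.

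On the direct side, Drd1 had 190.4, 284 and 314 CPM in striatum, against 13.3, 39.0 and 68.2 CPM in corpus callosum and 11.8, 18.7 and 32.7 CPM in cortex. The log2 change against cortex was 3.72 ± 0.27 for Drd1 and 3.07 ± 0.30 for the substance P precursor Tac1, which had 107 to 243 CPM in striatum, 13.8 to 72.2 CPM in corpus callosum and 5.09 to 38.4 CPM in cortex. The dynorphin precursor Pdyn was the least bound to striatum of the 9, with a log2 change of 1.94 ± 0.31 against cortex (adjusted p = 2.33e-05 by edgeR) and 2.22 ± 0.34 against corpus callosum. Its striatum libraries had 32.1, 106 and 145 CPM, against 5.95, 23.8 and 39.1 CPM in corpus callosum and 12.6, 24.9 and 47.6 CPM in cortex, so Pdyn alone among the 9 had striatum libraries below the highest library of another region. The other 8 lay above every library of both other regions, as did 2.17% of all genes tested. The low striatum libraries were MSA PLX5622 library 2 at 32.1 CPM and MSA placebo library 1 at 35.9 CPM, both named above as standing apart.

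Of the genes used by both pathways, Rgs9 stood at 478 to 911 CPM in striatum, 20.4 to 172 CPM in corpus callosum and 6.11 to 74.9 CPM in cortex, a log2 change of 4.60 ± 0.38 against cortex. Ppp1r1b stood at 2187 to 3493 CPM, 167 to 667 CPM and 119 to 413 CPM in these regions, and Adcy5 at 1815 to 2779.8 CPM, 183 to 624 CPM and 81.2 to 399.6 CPM. Their log2 changes against cortex were 3.78 ± 0.25 and 3.24 ± 0.23. Both overlap other annotated genes, with the same limit as for Penk.

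**Figure D1:**
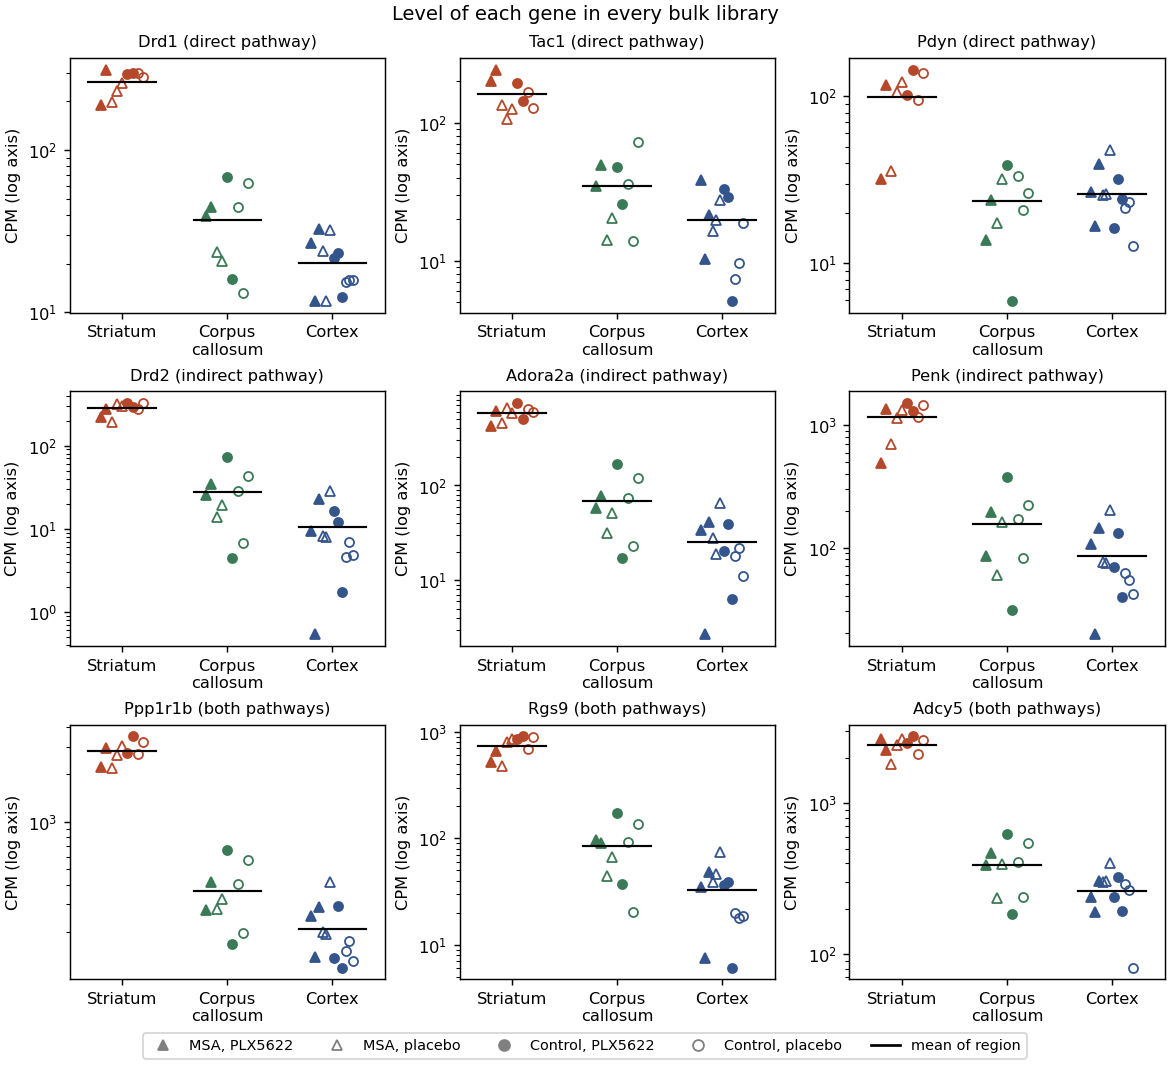
Level of each gene in every bulk library, in CPM on a log axis, with 1 point per library and a line at the mean of the region; triangles are MSA and circles control, filled for PLX5622 and open for placebo. Striatum libraries lie above those of the other regions for every gene except Pdyn, whose lowest striatum value of 32.1 CPM is under the highest cortex value of 47.6 CPM.

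Levels between genes can be compared per length in the authors' TPM, whose columns sum to 453451 to 559022 and not to 1e+06, so the values are relative. In striatum the mean TPM over 9 libraries was 2041 ± 379 (SD) for Ppp1r1b, 1320.3 ± 419 for Penk, 698 ± 107 for Adcy5, 438 ± 111 for Rgs9, 324 ± 62.5 for Adora2a, 265 ± 51.7 for Drd2, 221 ± 56.2 for Tac1, 110.1 ± 21.3 for Drd1 and 58.2 ± 24.8 for Pdyn. Of the 8 pairs of neighbours in that order 7 overlapped in range, and only Tac1 (156 to 331 TPM) and Drd1 (73.5 to 130.1 TPM) did not. Penk, for example, ran over 509.7 to 1713 TPM, and so overlapped both Ppp1r1b (1497 to 2644 TPM) and Adcy5 (491 to 831 TPM). The enkephalin precursor thus had more RNA per length than either direct pathway peptide precursor in the mean, and Drd2 more than Drd1. In cortex the order of the peptides was the same, with 91.1 ± 58.5 TPM for Penk, 25.2 ± 12.9 TPM for Tac1 and 14.4 ± 6.08 TPM for Pdyn (12 libraries).

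For these 9 genes corpus callosum and cortex lay closer to each other than to striatum, with a median log2 change of 0.71 between them. Of the 9 genes 5 passed as higher in corpus callosum than in cortex, where 30% of all genes tested passed in either direction. They were Rgs9 (log2 change 1.31 ± 0.35), Drd2 (1.31 ± 0.47), Adora2a (1.29 ± 0.41), Ppp1r1b (0.71 ± 0.24) and Drd1 (0.69 ± 0.26), while Penk (0.76 ± 0.39), Tac1 (0.63 ± 0.30), Adcy5 (0.45 ± 0.22) and Pdyn (-0.28 ± 0.31) did not pass. The count rested on single libraries. It was 1 without callosum control placebo 3, control PLX5622 1 or MSA placebo 2, 2 without callosum control placebo 1 or MSA PLX5622 3 or cortex MSA placebo 1, and 3 without callosum MSA placebo 1 or MSA PLX5622 1, cortex control placebo 1 or 3, control PLX5622 3, MSA placebo 2 or MSA PLX5622 1. In the placebo control libraries alone 0 of 9 passed.

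In corpus callosum each of the 9 genes varied more from library to library than in striatum, by the ratio of the highest to the lowest library, and in cortex 8 of them did. Pdyn was the exception, with a ratio of 3.77 in cortex and 4.51 in striatum. Its ratio of 6.56 in corpus callosum was 2.84 without control PLX5622 library 2. In corpus callosum the 2 control libraries on PLX5622 had 72.0 and 4.43 CPM of Drd2, 168 and 17.0 CPM of Adora2a, 382 and 30.9 CPM of Penk and 68.2 and 16.0 CPM of Drd1. The list of 10 other projection neuron genes stood at 2508 and 616 CPM in the same libraries, so all of these values were high in library 1 and low in library 2. Of the reads 77.2% were assigned to genes in library 1 and 59.5% in library 2, the lowest share of callosum, and the part of that in these values was not tested. Over the 9 callosum libraries, Pearson's r on log2 CPM between Adora2a and each other gene of the 9 was 0.75 to 0.99 (Pdyn 0.75, Drd2 0.99), as a description of libraries that share dissections and groups. Over the 9 striatum libraries the same r was -0.02 for Tac1, 0.04 for Adcy5, 0.80 for Drd2 and 0.82 for Penk. The highest library over the lowest was 53.4-fold for Drd2 and 24.5-fold for Adora2a in cortex, against 2.78-fold for Drd1, while in striatum these ratios were 1.69, 1.75 and 1.65. Without MSA cortex PLX5622 library 2, the lowest for both receptors, the cortex ratios were 16.4 for Drd2 and 10.3 for Adora2a. The part of tissue from the striatum in these libraries was not tested.

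**Figure D2:**
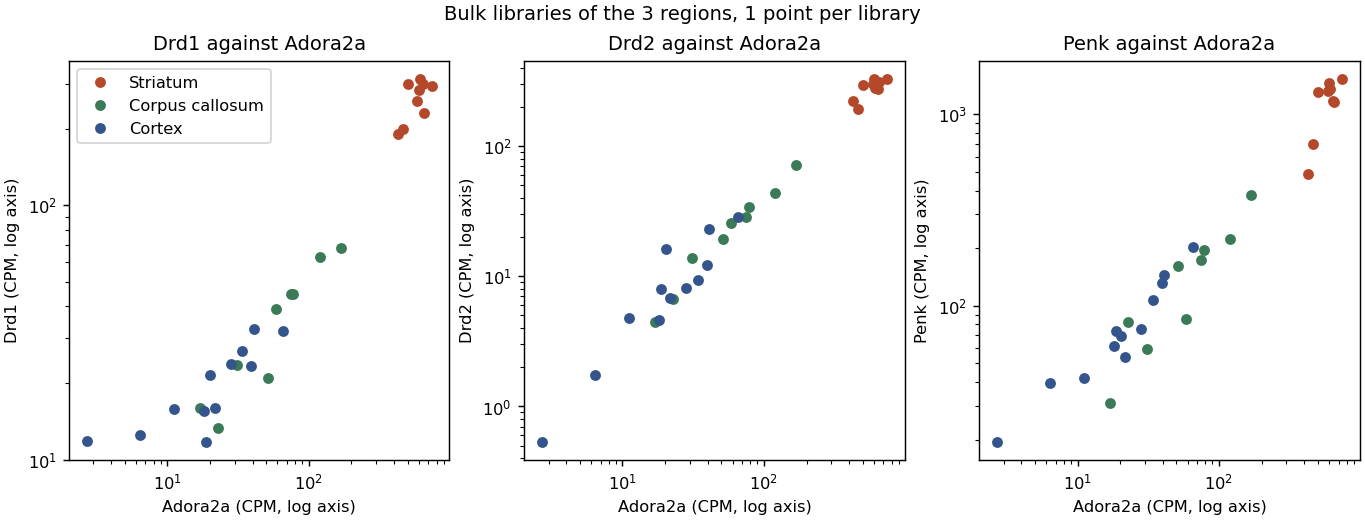
Drd1, Drd2 and Penk against Adora2a, all in CPM on log axes, with 1 point per bulk library coloured by region. In corpus callosum and cortex the genes rise with Adora2a over 2.68 to 168 CPM, and the striatum libraries form a group at 427 to 745 CPM. The median ratio of Penk to Adora2a was 3.41 in cortex and 2.27 in corpus callosum.

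In cortex the lowest libraries still held Drd1, while Drd2 and Adora2a were near 0 in them. MSA cortex PLX5622 library 2 had 11.8 CPM of Drd1, 0.537 CPM of Drd2 and 2.68 CPM of Adora2a, a ratio of Drd1 to Drd2 of 22.0. That ratio was 1.12 in MSA cortex placebo library 3, which had the highest Drd2 of cortex at 28.7 CPM, and 0.742 to 1.13 in striatum. Drd1 did not go under 11.8 CPM in any cortex library, and Pdyn not under 12.6 CPM.

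Other genes of these pathways showed how far the pattern reached. Beside the 9 genes, 5 of 6 other direct pathway genes were higher in striatum than in cortex, among them the transcription factors Ebf1 (log2 change 3.57 ± 0.30) and Isl1 (3.95 ± 0.44) and the muscarinic receptor Chrm4 (1.79 ± 0.19). Of 4 other indirect pathway genes 3 were higher, namely the orphan receptors Gpr6 (4.22 ± 0.38) and Gpr52 (3.16 ± 0.30) and the transcription factor Sp9 (2.80 ± 0.24). Of 28 further genes of dopamine and cAMP signalling 19 were higher and 2 lower, with the phosphodiesterases Pde10a (4.11 ± 0.28) and Pde1b (2.91 ± 0.21), the G protein subunit Gng7 (3.33 ± 0.24) and the exchange factor Rasgrp2 (3.19 ± 0.20) passing at the smallest p. All 5 cholinergic interneuron genes were also higher (median log2 change 3.55), and all 9 cortical glutamatergic genes were lower (median -4.02). Of all 16080 genes tested, 2996 passed as higher and 3316 as lower in striatum than in cortex.

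Over the means of the 12 bulk groups in log2 CPM, and among 12537 genes, the patterns most like that of Drd1 were those of Cd4 (Pearson's r 0.998), Gpr6 (0.997), Rarb (0.997), Tbc1d8 (0.995) and Cacng4 (0.995). Those most like Drd2 were Foxo1 (0.993), Ccdc88c (0.992), Itga5 (0.991), Cacng4 (0.991) and Traip (0.990). The 12 points fall into 3 regions, so r here mostly describes the step between striatum and the rest. Cd4, known as a coreceptor of T cells, had a mean of 105 CPM in striatum, 8.82 CPM in corpus callosum and 3.67 CPM in cortex.

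Within regions, 21 comparisons of genotype, diet and their interaction were made, each adjusted over all genes tested in its region. By edgeR 0 of the 9 genes passed in any of them. Of these 189 tests 3 had an unadjusted p under 0.05, and DESeq2 called 1, and all of these are named below. A p that misses the threshold does not show that a gene did not differ.

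In striatum the MSA model was set against controls on each diet and averaged over the diets. By edgeR 0 of 9 passed on placebo, where 0.0336% of 14872 genes passed, 0 of 9 on PLX5622 (0.222%) and 0 of 9 in the average (0.377%), with 0 called by DESeq2 in each. In the average 8 of the 9 estimates were below 0, with a median log2 change of -0.23 beside 0.01 over all genes tested. Tac1 was the exception at 0.07 ± 0.16. It was 0.04 ± 0.15 without MSA placebo library 1 and 0.14 ± 0.16 without MSA PLX5622 library 2. The median of the 9 genes was -0.15 without MSA placebo library 1, -0.13 without MSA PLX5622 library 2 and -0.27 without MSA placebo library 3. On PLX5622 alone it was -0.27, and -0.07 without library 2. On placebo alone it was -0.15, -0.03 without library 1 and -0.27 without library 3.

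Drd1 had 190.4 and 314 CPM in MSA striatum on PLX5622, against 296 and 301 CPM in control striatum on PLX5622. On placebo it had 199.5, 232 and 258 CPM in MSA striatum, against 301 and 284 CPM in control striatum. All 3 MSA placebo libraries were under both controls, while on PLX5622 the groups overlapped. How many of all genes tested separate in this way in striatum on placebo was not counted. Of the genes described here only Drd1 separated in that comparison, and 8 overlapped. In corpus callosum, with groups as small, 35.2% of all genes tested separated between MSA and control mice on placebo, in either direction. The separation of Drd1 is therefore a description only. The log2 change of Drd1 was -0.33 ± 0.23 on placebo, -0.24 ± 0.25 on PLX5622 and -0.29 ± 0.17 in the average (adjusted p = 0.65 by edgeR). Without MSA PLX5622 library 2 it was 0.08 ± 0.23 on PLX5622, so the direction turned, and -0.13 ± 0.15 in the average. Without MSA placebo library 1 it was -0.24 ± 0.23 on placebo.

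The peptide precursors Pdyn and Penk varied most within MSA striatum. Pdyn had 32.1 and 118 CPM in MSA striatum on PLX5622, against 102 and 145 CPM in controls on PLX5622. On placebo Pdyn had 35.9, 106 and 121 CPM in MSA striatum, against 95.5 and 138 CPM in controls. In each MSA group 1 library was low and the rest lay within or beside the control range. The average log2 change of -0.56 ± 0.44 was -0.37 ± 0.36 without MSA placebo library 1 and -0.23 ± 0.38 without MSA PLX5622 library 2.

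Penk repeated this pattern, with 489 and 1365 CPM in MSA striatum on PLX5622, against 1528 and 1303 CPM in controls on PLX5622. On placebo Penk had 700.4, 1158 and 1330.2 CPM in MSA striatum, against 1173 and 1455 CPM in controls. The average log2 change was -0.45 ± 0.29 (adjusted p = 0.668 by edgeR). It was -0.33 ± 0.26 without MSA placebo library 1 and -0.17 ± 0.23 without MSA PLX5622 library 2.

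The indirect pathway receptors were steadier. Drd2 had 222 and 277 CPM in MSA striatum on PLX5622, against 326 and 293 CPM in controls on PLX5622. On placebo Drd2 had 193, 312 and 299.6 CPM in MSA striatum, against 275 and 326 CPM in controls. The average log2 change was -0.23 ± 0.18 for Drd2 and -0.19 ± 0.18 for Adora2a, which had 427 to 652 CPM in MSA and 502 to 745 CPM in control striatum. For Drd2 it was -0.13 ± 0.14 without MSA placebo library 1 and -0.15 ± 0.19 without MSA PLX5622 library 2. For Adora2a it was -0.12 ± 0.17 and -0.07 ± 0.19 without these libraries.

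Among the shared genes, Rgs9 had 519 and 656 CPM in MSA striatum on PLX5622, against 849 and 911 CPM in controls on PLX5622. On placebo Rgs9 had 478, 811 and 853 CPM in MSA striatum, against 690.4 and 899 CPM in controls. Its log2 change was -0.58 ± 0.30 on PLX5622 (adjusted p = 0.468 by edgeR), the smallest adjusted p of the 9 in that comparison. It was -0.42 ± 0.36 without MSA PLX5622 library 2. Ppp1r1b and Adcy5 had average log2 changes of -0.21 ± 0.18 and -0.06 ± 0.18, with 2187 to 3027 CPM and 1815 to 2683 CPM in MSA striatum, against 2698 to 3493 CPM and 2111 to 2779.8 CPM in control striatum. Without MSA PLX5622 library 2 the change of Ppp1r1b was -0.12 ± 0.19 and that of Adcy5 -0.13 ± 0.19. That of Adcy5 was 0.01 ± 0.16 without MSA placebo library 1 and -0.12 ± 0.19 without MSA placebo library 3.

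**Figure D3:**
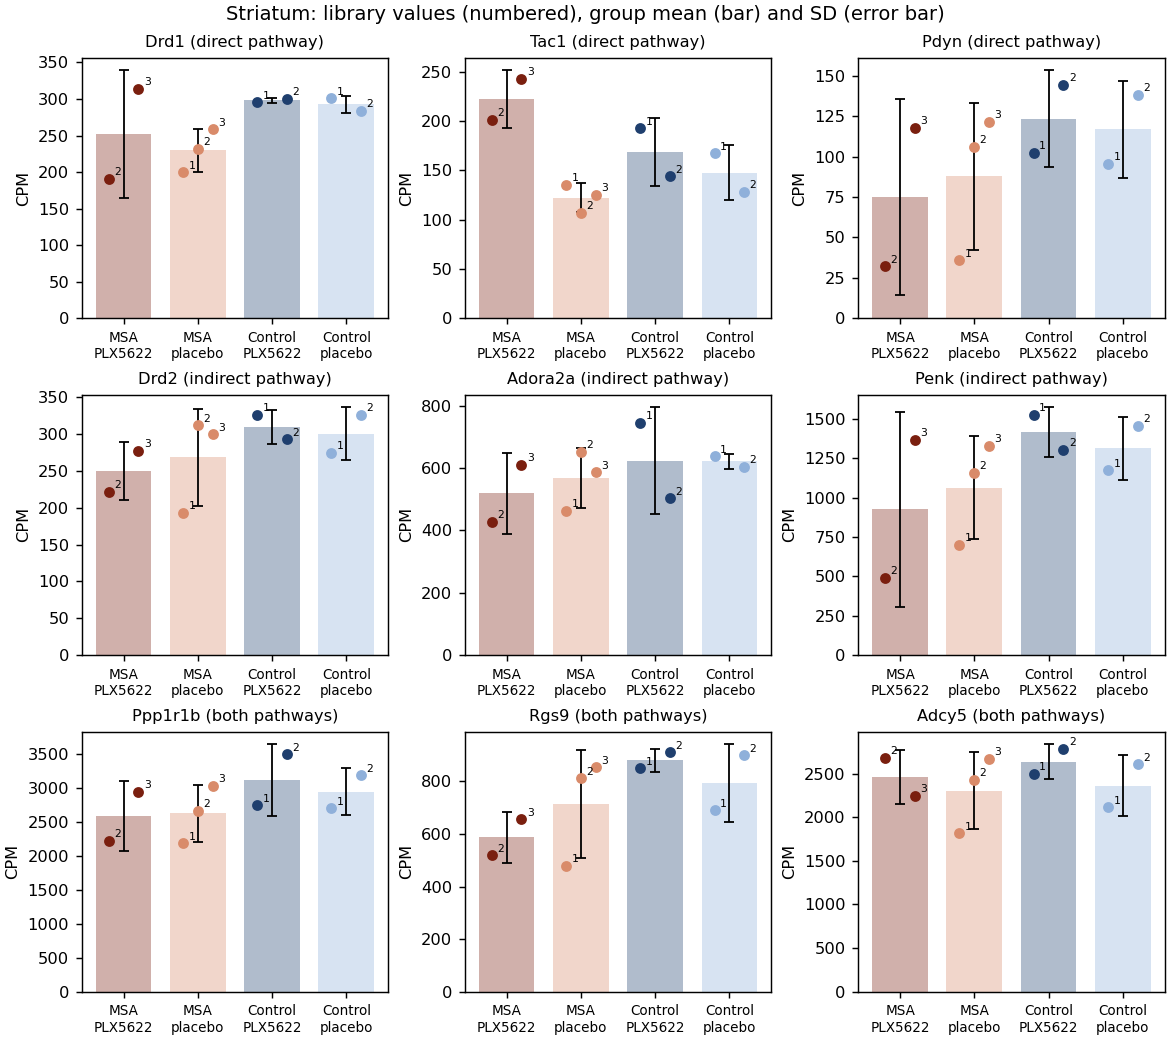
CPM of each gene in striatum by genotype and diet, with numbered points for libraries, bars for group means and error bars for SD (n = 2, 3, 2 and 2 from left to right). MSA placebo library 1 and MSA PLX5622 library 2 are the low points of Pdyn (35.9 and 32.1 CPM) and Penk (700.4 and 489 CPM).

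The diet comparisons in striatum asked how these genes stood after depletion of microglia. In MSA striatum the microglia list summed to 91.2 and 142 CPM on PLX5622, against 585, 475 and 472 CPM on placebo. By edgeR 0 of the 9 genes passed in MSA striatum (0.074% of all genes tested passed), in control striatum (0.336%), in the average of the genotypes (0.659%) or in the interaction of genotype and diet (0.0874%). The medians over the 9 genes were log2 changes of -0.08 in MSA and 0.12 in control striatum, beside -0.0016 and 0.0042 over all genes tested. The sign in MSA striatum turned with single libraries: the median was 0.19 without MSA PLX5622 library 2, 0.10 without MSA placebo library 3 and -0.24 without MSA placebo library 1.

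Tac1 came nearest to a call. It had 201 and 243 CPM in MSA striatum on PLX5622, against 135, 107 and 125 CPM in MSA striatum on placebo. Control striatum had 193 and 144 CPM of Tac1 on PLX5622 and 167 and 128 CPM on placebo. The log2 change of Tac1 with diet in MSA striatum was 0.88 ± 0.21 (unadjusted p = 0.00114, adjusted p = 0.157 by edgeR), which did not pass. In that comparison 1 of the 9 genes and 2053 of 14872 genes tested had an unadjusted p under 0.05. DESeq2 called Tac1 (0.87 ± 0.22, adjusted p = 0.0145), and so did edgeR without MSA placebo library 1 (0.96 ± 0.22, adjusted p = 0.0333). DESeq2 called 264 genes in that comparison, against 11 by edgeR with all libraries. With 1 library left out edgeR called up to 824 genes there, so these settings also moved the count over all genes. Over all settings tried the log2 change was 0.75 to 1.01, and it was 1.01 ± 0.24 (adjusted p = 0.462) without MSA PLX5622 library 2.

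In control striatum the change of Tac1 with diet was 0.22 ± 0.23, and in the average of the genotypes 0.55 ± 0.15 (unadjusted p = 0.00403, adjusted p = 0.241 by edgeR). In that average 1 of the 9 genes and 1051 of 14872 genes tested had an unadjusted p under 0.05. The difference of Tac1 between the genotypes, tested as an interaction, was 0.66 ± 0.31 on the log2 scale (adjusted p = 0.802 by edgeR), which did not pass. Between genotypes on PLX5622 the log2 change of Tac1 was 0.40 ± 0.23. The other genes had log2 changes with diet in MSA striatum of -0.26 to 0.16, among them -0.20 ± 0.60 for Pdyn and 0.16 ± 0.23 for Drd1, which share cells with Tac1. Without MSA PLX5622 library 2 these were 0.44 ± 0.56 for Pdyn and 0.47 ± 0.21 for Drd1. Without MSA placebo library 1 they were -0.57 ± 0.51 and 0.06 ± 0.23, and Pdyn was 0.10 ± 0.64 without MSA placebo library 3. No gene of the other direct pathway, other indirect pathway, projection neuron or dopamine and cAMP lists passed in any genotype or diet comparison of striatum.

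**Figure D4:**
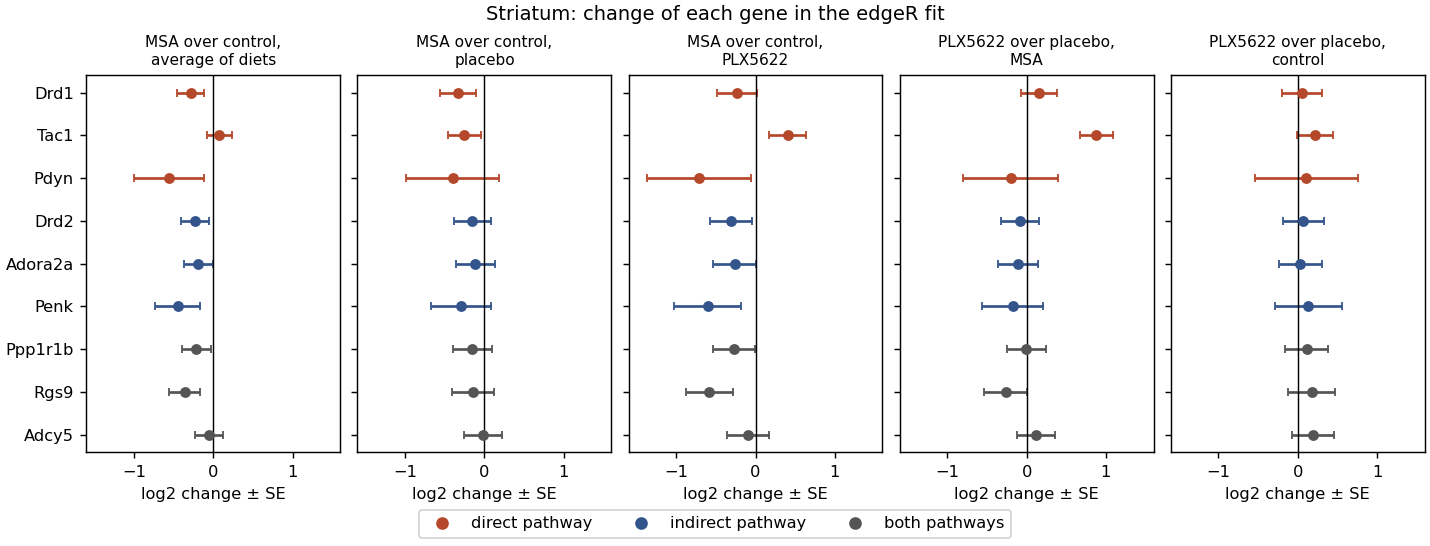
Log2 change of each gene in striatum in the edgeR fit, with SE as error bars, for genotype (first 3 panels) and diet (last 2 panels). Tac1 with diet in MSA striatum, at 0.88, lies furthest to the right, and the widest bars are those of Pdyn.

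Ratios of CPM within a library do not depend on its scaling. They are not corrected for transcript length, which is 3478 bases for Drd1 and 1539 bases for Drd2. They therefore compare libraries, and a ratio of 1 does not mark equal RNA. The ratio of Drd1 to Drd2 in CPM was 0.859 and 1.13 in MSA striatum on PLX5622, 1.03, 0.742 and 0.862 in MSA striatum on placebo, 0.908 and 1.03 in controls on PLX5622 and 1.10 and 0.872 in controls on placebo. These groups overlapped. The ratio of Tac1 to Penk was 0.411 and 0.178 in MSA striatum on PLX5622, 0.193, 0.0922 and 0.0940 in MSA striatum on placebo, 0.126 and 0.110 in controls on PLX5622 and 0.143 and 0.0880 in controls on placebo. The value of 0.411 belongs to library 2, whose Penk was the lowest of striatum. The ratio of Pdyn to Tac1 was 0.159 and 0.485 in MSA striatum on PLX5622, 0.266, 0.994 and 0.971 in MSA striatum on placebo, 0.532 and 1.01 in controls on PLX5622 and 0.571 and 1.08 in controls on placebo.

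**Figure D5:**
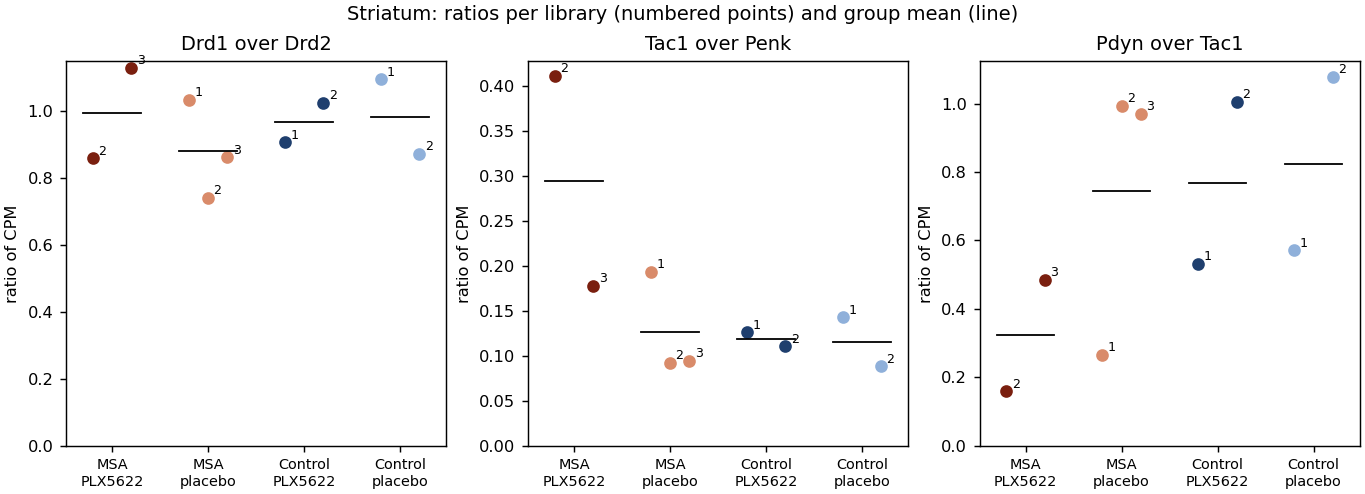
Ratios of CPM within each striatum library, with numbered points for libraries and a line at the group mean: Drd1 over Drd2, Tac1 over Penk and Pdyn over Tac1. Tac1 over Penk is 0.411 and 0.178 in MSA striatum on PLX5622, and 0.0880 to 0.193 in the other groups.

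In cortex the estimates of all 9 genes were higher in MSA mice than in controls on placebo, without a call. By edgeR 0 of 9 passed, as did 0% of 14600 genes, and 1 of the 9 and 514 of all genes had an unadjusted p under 0.05, while DESeq2 called 0 of the 9 and 3 of all genes. Rgs9 had 39.2, 46.0 and 74.9 CPM in MSA cortex on placebo, against 19.8, 17.7 and 18.6 CPM in control cortex on placebo, a log2 change of 1.51 ± 0.67 (unadjusted p = 0.0434, adjusted p = 0.828 by edgeR). Drd2 had 8.19, 8.01 and 28.7 CPM, against 4.61, 6.86 and 4.78 CPM in these groups, and Ppp1r1b 199, 194 and 413 CPM, against 151, 175 and 132 CPM. Of the 9 genes 6 were higher with no overlap between these groups (Pdyn, Drd2, Penk, Ppp1r1b, Rgs9 and Adcy5), as were 4.76% of all genes tested, and all 9 estimates were above 0, with a median of 0.86 beside 0.02 over all genes tested.

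The cholinergic interneuron list moved with these genes, at 19.0, 16.7 and 34.0 CPM in MSA cortex, against 6.14, 5.57 and 4.16 CPM in control cortex on placebo. The list of 10 other projection neuron genes stood at 984, 884 and 1319 CPM, against 897, 929 and 667 CPM. Both lists are higher in striatum than in cortex, and the part of striatal tissue in these values was not tested. On PLX5622 the median of the 9 genes in MSA over control cortex was 0.14, 0 of 9 passed (0.151% of all genes did) and all 9 overlapped between groups, where 6.4% of all genes tested did not. In the average of the diets 0 of 9 passed (0.137%).

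With diet, 0 of 9 genes passed in MSA cortex (0.0548% of all genes tested), in control cortex (0.486%), in the average (0.712%) or in the interaction (0.0959%). Their median log2 change was -0.41 in MSA and 0.37 in control cortex, and all 9 genes overlapped between diets in both, where 14.8% of all genes tested in MSA and 5.29% in control cortex did not. Drd2 in MSA cortex on PLX5622 had 9.34, 0.537 and 23.0 CPM, against 8.19, 8.01 and 28.7 CPM on placebo. In control cortex it had 16.3, 12.1 and 1.74 CPM on PLX5622, against 4.61, 6.86 and 4.78 CPM on placebo. The spread within each PLX5622 group was thus larger than the distance between the diets.

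In corpus callosum 0 of 9 passed between MSA and control mice on placebo (0.321% of 15881 genes tested did), on PLX5622 (0.195%) and in the average (0.365%), by edgeR and by DESeq2. All 9 estimates were below 0 on placebo, with a median of -0.56, and the groups of all 9 genes overlapped, where 35.2% of all genes tested did not. Without libraries under 70% assigned, which leaves out control placebo 3, the median was -0.17. The choroid plexus list summed to 8184 and 3187 CPM in MSA callosum on placebo, against 249.7, 279.6 and 344 CPM in control callosum on placebo. All 8 of its genes passed as higher in MSA (median log2 change 3.85), and the part of that tissue in the values of the 9 genes was not tested. Tac1 had 14.2 and 20.5 CPM in MSA callosum on placebo, against 35.9, 13.8 and 72.2 CPM in control callosum on placebo, a log2 change of -1.23 ± 0.57 (adjusted p = 0.594 by edgeR).

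With diet 0 of 9 passed in MSA callosum (0.0693% of all genes tested did), in control callosum (0.46%), in the average (0.453%) or in the interaction (0.264%). In MSA callosum 5 of 9 genes were higher on PLX5622 with no overlap between diets, as were 31.1% of all genes tested. Tac1 had 34.9 and 49.4 CPM on PLX5622, against 14.2 and 20.5 CPM on placebo, a log2 change of 1.19 ± 0.61, and Drd1 had 39.0 and 44.6 CPM, against 23.5 and 20.9 CPM, a log2 change of 0.80 ± 0.69. The others were Drd2, Adora2a and Rgs9. Of the reads 59.6% were assigned to genes in MSA PLX5622 library 1 and 73.9% in library 3, against 76.4 and 76.6% on placebo. The part of that in these values was not tested. In the same libraries the projection neuron list stood at 1210.1 and 1512 CPM, against 759.9 and 1235 CPM. The choroid plexus list stood at 405 and 453 CPM on PLX5622, against 8184 and 3187 CPM on placebo, with 5 of 8 genes passing as lower on PLX5622. The part of either list in these values was not tested. In the average of the genotypes the log2 change of Pdyn with diet was -0.35 ± 0.46. Without control PLX5622 library 1 it was -1.36 ± 0.31, but that fit leaves control PLX5622 with library 2 alone. That library had the lowest Pdyn of callosum, at 5.95 CPM, and 59.5% of its reads assigned to genes.

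Sorted microglia, which should lack these genes, gave the level to read them against. Tac1 and Drd2 had 0 counts in all 6 libraries, and Drd1, Pdyn, Adora2a, Penk, Rgs9 and Adcy5 had 0 to 10 counts per library. Ppp1r1b was the exception, with 84, 199 and 93 counts in MSA microglia (11.6, 22.5 and 15.6 CPM), against 66, 131 and 82 counts in control microglia (8.84, 16.0 and 6.77 CPM). The groups overlapped. The choroid plexus list stood at 844, 1607 and 1190 CPM, against 519, 1173 and 717 CPM in the same libraries, and its part in the Ppp1r1b counts was not tested. In striatum Ppp1r1b was at least 2187 CPM in every library.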

How the data were processed

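Bulk poly(A) RNA-seq of 30 libraries from striatum, corpus callosum and cortex and of 6 libraries of sorted microglia was used. The authors deposited 2 tables of the same genes and libraries, one of raw whole-number counts and one of TPM. The submitters' processing notes name STAR, HOMER and DESeq2, and mm10 as the build. Versions, counting settings and strandedness were not given in the sources used here.

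Libraries were grouped by their titles. In edgeR 4.0.16 (R 4.3.3), genes with low counts were removed by filterByExpr at a minimum of 10, TMM set the scaling, and robust quasi-likelihood F tests, 2-sided, were adjusted over all genes tested by Benjamini-Hochberg, with 0.05 as the limit. Each region was fitted with its 4 groups, and regions were compared over all 30 libraries. Errors of log2 changes are the change divided by the square root of F. CPM are counts scaled to 1e+06 counts assigned to genes, and log2 CPM for correlations added 0.5. The tests were run on simulated counts first.

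The 9 genes and the marker lists were chosen with earlier results of these data known. Named beside the 9 are up to 4 genes of smallest p per list among those past the threshold, and the 5 genes most like Drd1 and Drd2 with mean log2 CPM of at least 2. Alternatives were DESeq2 1.42.0, scaling by RLE, a fit of all genes with a count, a block for the replicate number, each library left out, and fewer groups in the fit; leaving out libraries with under 70% assigned was chosen after seeing the data.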

Additional observations from a re-analysis of the deposited data

How the results depend on the processing

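All 9 genes stayed higher in striatum than in cortex under all 27 alternatives. Against corpus callosum they did so under 23 of 24, and in the placebo control libraries alone 7 passed, without Rgs9 and Tac1. The count of 5 genes for corpus callosum against cortex was 3 without the low-count filter, 0 in the placebo control libraries alone, and 1 to 7 with 1 library left out. For diet averaged over genotypes in corpus callosum, Pdyn passed only in a fit that leaves control PLX5622 with 1 library. For diet in MSA striatum the count was 1 under DESeq2 (Tac1), and 1 without MSA placebo library 1 (also Tac1). Over all genes up to 824 were called there with 1 library left out, against 11 with all libraries. The labels tie no number to an animal. Deviations of libraries with the same number had r of -0.62 to 0.51 in cortex and -0.40 to 0.29 in corpus callosum. In striatum this r was -0.12 to 0.24. The median r for the same number was -0.06 in cortex, -0.04 in corpus callosum and 0.10 in striatum. For different numbers it was 0.02, 0.02 and -0.05 in these regions. In groups this small the deviations are tied to each other, so these r cannot decide whether the numbers pair the libraries. With the replicate number as a block, the counts in striatum were 3 for MSA against control averaged over diets, 3 for that comparison on PLX5622, 1 for diet averaged over genotypes and 1 for diet in MSA. The genes were Pdyn (average log2 change -1.42, adjusted p = 0.0365 by edgeR), Penk (-0.98, 0.0334) and Rgs9 (-0.64, 0.0323), lower in MSA, and Tac1 (0.96, 0.00916 in MSA), higher on PLX5622. Over all genes that block called 1143 in the genotype average, against 56, 1908 in MSA against control on PLX5622, against 33, and 1349 for diet in MSA, against 11. None of the 9 genes was called within regions by edgeR to begin with. Of 2403 values of single genes there under alternatives, 11 newly passed and 286 others changed sign without a call.

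Counts over all genes moved by over 1.5 times in 21 comparisons under DESeq2, 13 without the filter, 16 with the block and 13 without the libraries of low assignment. Groups of 2 or 3 libraries limit the precision of every genotype and diet comparison, and the 3 striatum libraries that stood apart all belong to MSA mice. The cause of each move was not tested.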

Other observations

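Against corpus callosum the wider dopamine and cAMP list followed the 9 genes, with 22 of 28 genes higher in striatum and 1 lower by edgeR, where 30.3% of all genes tested passed in either direction. The list of genes that dopamine neurons themselves use, which holds Th and Slc6a3, summed to 11.3 to 19.7 CPM in striatum, 12.1 to 28.5 CPM in corpus callosum and 5.27 to 12.4 CPM in cortex. Of its 3 genes tested, 2 were higher in striatum than in cortex and 2 were lower in striatum than in corpus callosum. The cholinergic interneuron list, which holds Chat and Lhx8, summed to 57.4 and 100.0 CPM in MSA striatum on PLX5622, 67.6, 158 and 149 CPM in MSA striatum on placebo, 123 and 117 CPM in controls on PLX5622 and 125 and 116 CPM in controls on placebo. Its low values were in the same pair of MSA libraries as those of Pdyn and Penk, and none of its 5 genes passed in a genotype or diet comparison of striatum.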
